A study of Mus musculus with 12 samples.

Results

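Extracellular proteases and the inhibitors that hold them in check were followed in auditory cortex from acute mouse brain slices, after 1 h in a pharmacological cocktail or in plain artificial cerebrospinal fluid (aCSF). The set was a fixed list of 8 gene symbols, of 20989 gene loci in the files, and each symbol matched exactly 1 locus in all 12 libraries. It comprises the plasminogen activators Plat and Plau, the receptor Plaur, the metalloproteinases Mmp9 and Adamts1, and the tissue inhibitors of metalloproteinases Timp1, Timp2 and Timp3. Slices came from 6 C57bl6/J mice of 4 weeks, with no transgene or mutation named in the labels. They were divided at the midline, so that each mouse gave a control hemisphere (n = 6), which stayed in aCSF, and a cocktail hemisphere (n = 6), which was exposed to bicuculline, norepinephrine, carbamoylcholine, dopamine, ascorbic acid and serotonin together. Bicuculline blocks inhibitory GABA-A receptors, norepinephrine, carbamoylcholine, dopamine and serotonin act on neuromodulator receptors, and no component was given alone. Following the study's methods, the hemispheres of both groups then rested for a further 1 h in aCSF before the auditory cortex was dissected. Poly-A RNA was sequenced, and expression is given as FPKM, the fragments on a gene scaled by transcript length and by all fragments on protein coding genes, so that levels of different genes can be compared.

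Secreted proteases cut the matrix between cells and the proteins anchored in it. Tissue plasminogen activator (Plat) and urokinase (Plau) convert plasminogen to plasmin, and urokinase is held at the cell surface by its receptor Plaur. Metalloproteinases such as Mmp9 and Adamts1 carry a catalytic zinc ion and cleave collagens, proteoglycans and adhesion proteins, and Timp proteins bind in their active site. In the cortex these enzymes are known for their part in synaptic remodelling, in the opening of perineuronal nets and in the response of vessels and glia to injury. Slicing is itself an injury, and both hemispheres of a mouse went through it.

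Adamts1 and Plat were higher in the cocktail hemispheres, and none of the Timp genes passed the test. Adamts1 rose 1.65-fold in mean FPKM and Plat 1.25-fold, and both were higher in the cocktail hemisphere of 6 of 6 mice. Testing used limma on log2(FPKM + 1), with the mouse as a block, over the 12032 loci whose FPKM averaged 1 or more. A locus was called at a Benjamini-Hochberg adjusted p under 0.05. Of the 8 genes, 7 had a mean FPKM of at least 1 and were tested, and Mmp9 was not. Among the 7 tested, 2 were called higher, 0 were called lower and 5 were not called. Over all loci tested, 1.22% were called higher and 1.50% were called in either direction. The median log2 fold change of the 7 genes was 0.035, against 0.0076 over all loci tested.

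The libraries held between 10601067 and 19768881 reads in control and between 13544297 and 17643462 in cocktail hemispheres, as recovered from the interval that Cufflinks gives with each FPKM. The 3 activity-regulated genes Fos, Arc and Npas4, which mark neuronal firing, were all called higher, with ratios of the mean FPKM of 1.96, 1.77 and 1.81. Control mouse 1, the most deeply sequenced library, stood apart from the other controls. Its chi-square per gene against them, on recovered reads, was 26.4 to 35.5, against 6.83 to 15.2 among the other 5, and its median-of-ratios size factor was 0.9052, against 0.9943 to 1.046. The cocktail library of mouse 1 also tended to differ, with 15.3 to 24.4 against the other cocktail libraries. Those had 7.96 to 16.3 among themselves, an overlapping range. Its size factor was 0.9808, against 0.9981 to 1.027 in the other cocktail libraries. Values without mouse 1 are given beside the called genes. Markers of excitatory neurons, inhibitory neurons and oligodendrocytes were abundant in all libraries, with summed FPKM of at least 1205, 452 and 1735. Markers of neutrophils, which store MMP9 protein, summed to at most 0.375 FPKM in control and 0.398 in cocktail libraries, with Camp at 0 in all 12. Bulk RNA cannot tell a change in the number of cells of a type from a change in RNA per cell, and this holds for each gene below.

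The bases upstream of the start site are shown for 3 of the genes, because they let the called gene Adamts1 be read beside genes that were not called. The sequences are from RefSeq (GRCm38.p6, the assembly called mm10 in the files), which gave a promoter for 5 of the 8 genes: Adamts1, Plaur, Timp1, Timp2 and Timp3. Each run is 250 bases, 5′ to 3′ on the strand of the gene, and ends at the base before the RefSeq start. For Timp1 that is also the start in the files, whereas the start in the files lies 17 bases downstream of it for Plaur and 2 bases upstream for Adamts1. Capitals mark matches, on either strand, to TGANTCA (the core of sites for AP-1, the dimer of Fos and Jun proteins), TGACGTCA (the cAMP response element), TGACG (a part of that element, so that the longer motif always holds it) and TATAAA (the TATA box).
Adamts1 (chr16:85803114-85803363, minus strand): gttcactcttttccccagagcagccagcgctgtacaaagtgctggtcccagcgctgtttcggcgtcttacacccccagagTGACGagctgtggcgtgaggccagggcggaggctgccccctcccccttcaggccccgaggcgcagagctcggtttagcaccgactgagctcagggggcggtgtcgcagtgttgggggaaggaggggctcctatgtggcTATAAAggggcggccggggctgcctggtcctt
Plaur (chr7:24462233-24462482, plus strand): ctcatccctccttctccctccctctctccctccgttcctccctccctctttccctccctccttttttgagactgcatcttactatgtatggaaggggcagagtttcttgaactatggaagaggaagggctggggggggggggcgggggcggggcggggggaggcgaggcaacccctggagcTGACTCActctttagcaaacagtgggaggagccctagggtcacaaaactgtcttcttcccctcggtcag
Timp1 (chrX:20869916-20870165, plus strand): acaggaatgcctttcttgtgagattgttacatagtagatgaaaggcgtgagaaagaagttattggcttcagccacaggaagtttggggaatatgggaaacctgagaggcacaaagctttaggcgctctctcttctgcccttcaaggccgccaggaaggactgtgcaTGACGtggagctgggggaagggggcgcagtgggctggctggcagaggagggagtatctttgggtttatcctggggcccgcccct

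The Adamts1 promoter held TGACG from position -170 and TATAAA from -32, counted back from the RefSeq start, and neither of the full AP-1 and cAMP motifs. The Plaur promoter held an AP-1 match, TGACTCA from -69, and the Timp1 promoter held TGACG from -84. None of the motifs was found in the Timp2 and Timp3 windows. Among 32851 RefSeq promoters of the same length, TGANTCA was present in 6.75%, TGACGTCA in 1.55%, TGACG in 17.8% and TATAAA in 12.4%. Adamts1, the gene with the largest change of the 8, did not have the AP-1 letters in this window, and Plaur, which had them, was not called. Such matches describe the letters of the window and not the binding of a factor, and a link between motif and change was not tested.

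In control slices the 8 transcripts covered a wide range of levels. Timp2 was the most abundant, with a mean of 106 FPKM, followed by Plat (32.0), Timp3 (18.7), Adamts1 (13.9), Plau (5.35), Plaur (4.09), Timp1 (1.73) and Mmp9 (0.397). Each gene lay above the next in all 6 control libraries, with ranges that did not overlap, except that Plau exceeded Plaur in 4 of 6 with overlapping ranges. In the cocktail libraries the order was the same but for Adamts1 and Timp3. Timp3 was above Adamts1 in all 6 control libraries, whereas in the cocktail libraries Adamts1 averaged 23.0 and Timp3 20.9 FPKM, with overlapping ranges and Adamts1 higher in 4 of 6. Plau and Plaur again overlapped in the cocktail group.

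**Figure D1:**
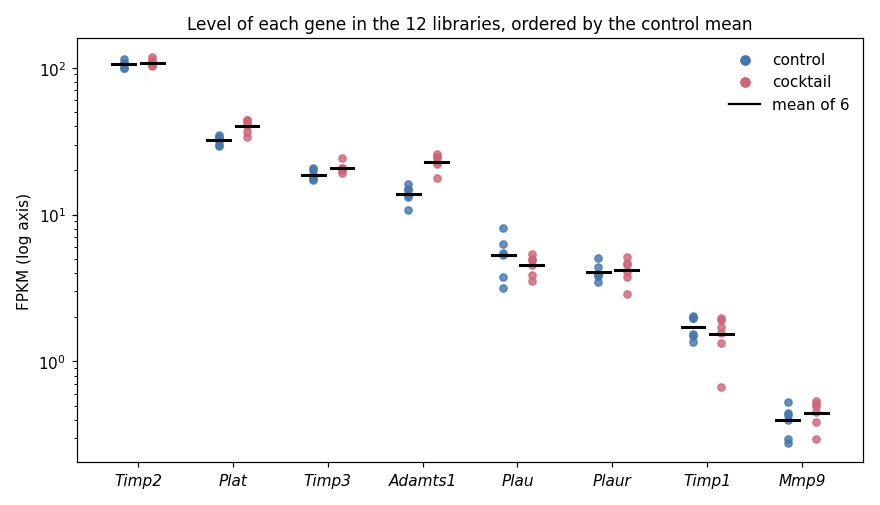
FPKM of each gene in the 12 libraries on a log axis, ordered by the control mean, with 6 control points (blue), 6 cocktail points (red) and a black line at each mean. Timp2 lies near 106 FPKM and Mmp9 near 0.397 in control, and the only gene whose red and blue points do not overlap is Adamts1.

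The transcript with the clearest change was Adamts1, which encodes a secreted metalloproteinase with thrombospondin repeats that cleaves the proteoglycans aggrecan and versican. It lies on the minus strand of chromosome 16 of mm10, from 85793828 to 85803115, with 10 exon blocks and no exon shared with another gene in GENCODE M21. In control libraries its FPKM ran from 10.8 through a median of 14.2 to 16.2, and in cocktail libraries from 17.8 through a median of 23.7 to 25.9. Every cocktail library was therefore above every control library. This was so of 1 of the 7 genes tested, and 0.914% of all loci tested had groups that did not overlap.

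The mean FPKM of Adamts1 was 13.9 ± 1.84 in control and 23.0 ± 2.93 in cocktail hemispheres (SD, n = 6 each). The log2 fold change was 0.69 (standard error 0.075, 95% interval 0.52 to 0.85, limma adjusted p = 0.000366), which ranked 34 by size of rise and 40 by p among the 12032 loci. The within-mouse differences on the log2(FPKM + 1) scale were 1.01 in mouse 1, 0.54 in mouse 2, 0.85 in mouse 3, 0.76 in mouse 4, 0.59 in mouse 5 and 0.36 in mouse 6. Mouse 6 had the smallest and mouse 1 the largest rise, and mouse 1 also had the lowest control value. Flipping the signs of the 6 differences in all ways, an exact permutation test (two-sided), gave p = 0.03125, the smallest that 6 pairs allow. Between 727 and 2250 reads per library lay behind these values. The call held in all 13 alternative settings, with adjusted p from limma of at most 0.00696. Without mouse 1 the log2 fold change was 0.623 (limma adjusted p = 0.000535).

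Plat encodes tissue plasminogen activator, a serine protease that neurons and endothelial cells release and that also acts on NMDA receptors and pro-BDNF processing. The gene lies on the plus strand of chromosome 8, from 22757744 to 22782848, with 13 exon blocks. Its FPKM ran from 29.5 through 32.4 to 34.7 in control and from 33.6 through 40.9 to 44.2 in cocktail libraries, as lowest, median and highest values. The groups overlapped through the cocktail hemisphere of mouse 6, the lowest of the cocktail values, while the other 5 lay above all controls.

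Mean FPKM of Plat was 32.0 ± 2.12 in control and 40.0 ± 4.26 in cocktail hemispheres (SD, n = 6 each). The log2 fold change was 0.31 (standard error 0.052, 95% interval 0.19 to 0.42, limma adjusted p = 0.00989). The difference was 0.077 in mouse 6 and between 0.29 and 0.42 in the other mice. All 6 differences were above 0, as for 3 of the 7 genes tested (Plat, Timp3 and Adamts1) and for 3.64% of all loci tested, and the exact sign-flip permutation test gave p = 0.03125. The call was lost without the mouse as a replicate block (adjusted p = 0.059 from limma) and without mouse 4 (adjusted p = 0.0624), where the log2 fold change was 0.287. Without mouse 1 it was 0.304 (limma adjusted p = 0.0145). The direction was the same in all 13 alternative settings.

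**Figure D2:**
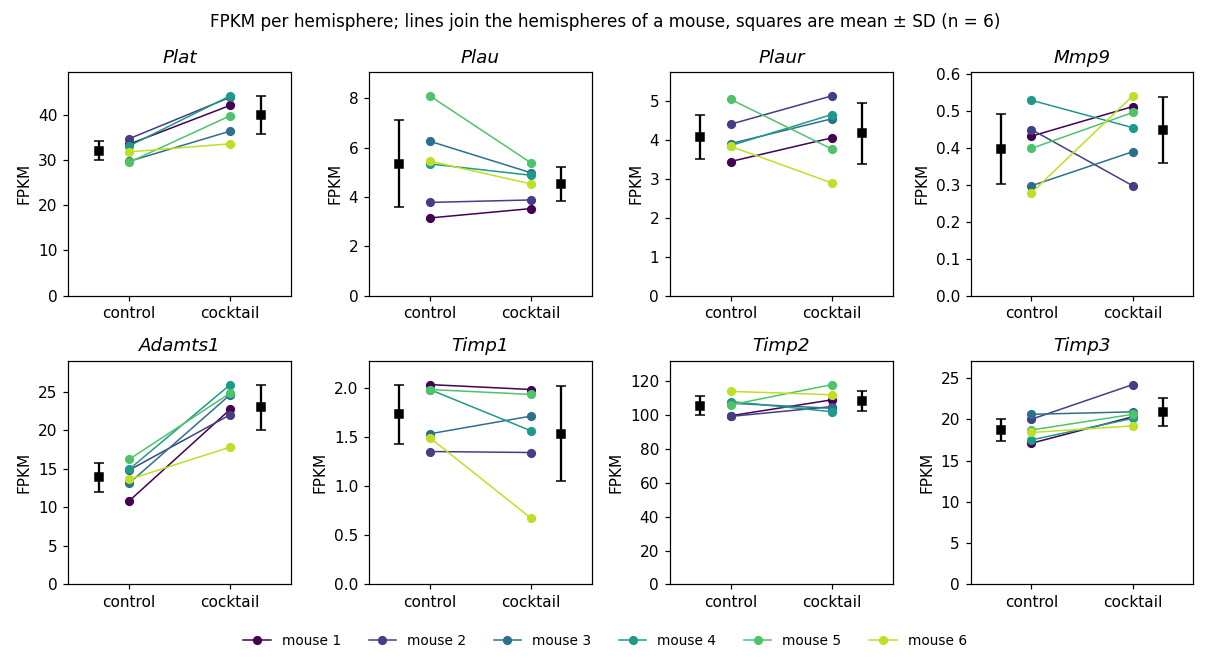
FPKM of each gene in control and cocktail hemispheres, 1 panel per gene with its own axis from 0. Coloured lines join the hemispheres of a mouse and black squares are the mean ± SD of 6. All 6 lines go up for Plat, Adamts1 and Timp3, and lines of both directions are seen for the other 5 genes.

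Plau, the gene of urokinase, which shares its substrate plasminogen with Plat, was not called. It lies on chromosome 14 from 20836662 to 20843388. Its control values ran from 3.15 through 5.40 to 8.10 FPKM and its cocktail values from 3.53 through 4.70 to 5.38 FPKM, so that the cocktail values all lay within the control range. It was lower in the cocktail in 4 of 6 mice, and its log2 fold change was -0.16 (SE 0.079, 95% interval -0.33 to 0.01, limma adjusted p = 0.671). The spread between mice was larger in control (SD 1.77) than in cocktail hemispheres (SD 0.704, n = 6 each), and mouse 5 had both the highest control value and the largest difference (-0.51). Without mouse 5 the log2 fold change was -0.091, and without each of the other mice in turn it lay between -0.219 and -0.138.

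Plaur, the urokinase receptor, is attached to the membrane by a lipid anchor and lies on chromosome 7 from 24462500 to 24475873. Control values ran from 3.45 through 3.88 to 5.05 FPKM, and cocktail values from 2.90 through 4.30 to 5.14 FPKM. Mice 1 to 4 were higher in the cocktail by 0.18 to 0.22 on the log2(FPKM + 1) scale, and the differences of mice 5 and 6 were -0.34 and -0.31. The directions of the mice thus differed, and the log2 fold change of 0.019 (95% interval -0.17 to 0.21, limma adjusted p = 0.982) changed sign with the setting. Only 57 to 108 reads per library lay behind these values.

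Mmp9 encodes gelatinase B, a protease of collagen IV, gelatin and synaptic adhesion proteins, which is often described as activity-regulated in neurons. It lies on chromosome 2 from 164948219 to 164955849 and was near the limit of what these libraries can measure, with 8 to 27 reads per library. Its FPKM ran from 0.278 through 0.415 to 0.528 in control and from 0.297 through 0.475 to 0.540 in cocktail libraries. It was higher in the cocktail in 4 of 6 mice, with a mean difference of 0.052 ± 0.15 (SD, n = 6) on the log2(FPKM + 1) scale, and the exact sign-flip permutation test gave p = 0.40625. The mean difference was 0.0085 without mouse 6, 0.094 without mouse 2 and between 0.042 and 0.077 without each of the others. When all loci with a value were fitted, its 95% interval was -0.068 to 0.17 (limma adjusted p = 0.895). A change of Mmp9 was not detectable at this depth, and the added 1 compresses changes at such low FPKM.

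The inhibitors differed in level far more than in their change. Timp2, which inhibits many metalloproteinases and takes part in the activation of pro-MMP2, lies on chromosome 11 from 118301061 to 118355411 and had 99.2 to 114 FPKM in control and 102 to 118 FPKM in cocktail libraries. It was higher in 3 mice and lower in 3, with a log2 fold change of 0.035 and the narrowest interval of the 7 genes tested, from -0.067 to 0.14 (limma adjusted p = 0.907). With 4051 to 7615 reads per library, changes beyond those bounds lay outside its interval.

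Timp3 is the inhibitor that binds to the matrix and that also acts on ADAMTS and ADAM enzymes. Its FPKM ran from 17.1 through 18.5 to 20.6 in control and from 19.2 through 20.5 to 24.2 in cocktail libraries, with overlapping groups. All 6 mice were higher in the cocktail, by 0.022 in mouse 3 to 0.27 in mouse 2. Its log2 fold change was 0.15 (95% interval 0.043 to 0.26), and it was not called over all loci (limma unadjusted p = 0.0105, adjusted p = 0.299). The exact sign-flip permutation test gave p = 0.03125, the value that any 6 differences of the same sign give, unadjusted for the number of genes. Timp3, on chromosome 10 from 86300412 to 86349505, lies within Syn3, a synapsin gene on the opposite strand, and shares 1733 exon bases with it in GENCODE M21. The reads were strand specific by the study's methods, but no strand setting is named for the FPKM step, so reads of the shared bases cannot be told apart here. Syn3 itself had 5.53 ± 0.383 FPKM in control and 5.18 ± 0.414 in cocktail hemispheres (SD, n = 6 each) and was lower in the cocktail in 6 of 6 mice (log2 fold change -0.08, limma adjusted p = 0.783).

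Timp1, the secreted inhibitor best known as an injury and inflammation gene of glia, was the scarcest of the inhibitors, with 7 to 30 reads per library. It lies on chromosome X from 20870166 to 20874737, within the gene Syn1 on the opposite strand, with which it shares 0 exon bases. Values ran from 1.35 through 1.75 to 2.03 FPKM in control and from 0.672 through 1.63 to 1.98 FPKM in cocktail libraries. It was lower in the cocktail in 5 of 6 mice, but by no more than 0.025 on the log2(FPKM + 1) scale in 3 of these 5, and its log2 fold change of -0.13 (95% interval -0.31 to 0.06) was not called (limma adjusted p = 0.788). The cocktail hemisphere of mouse 6 had the lowest value, and without that mouse the log2 fold change was -0.035. Without each of the other mice in turn it lay between -0.170 and -0.107.

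**Figure D3:**
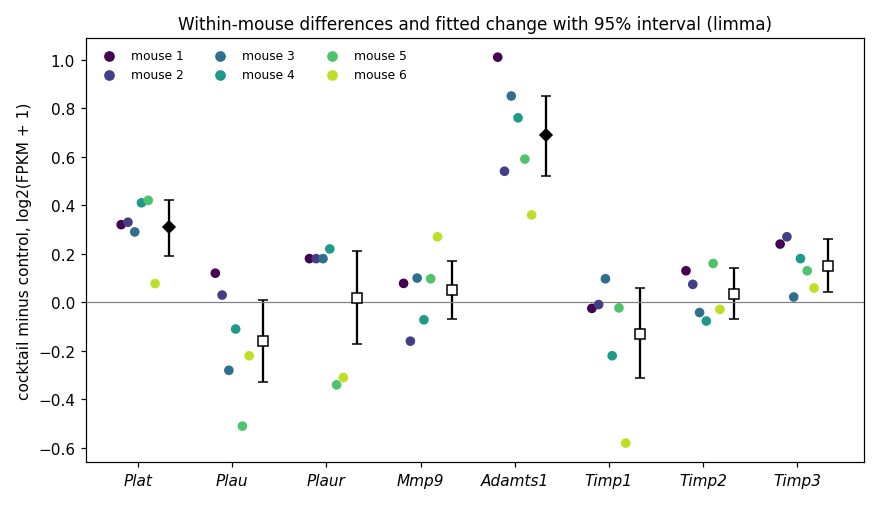
Cocktail minus control difference on the log2(FPKM + 1) scale for each gene, with 1 coloured point per mouse and, beside them, the limma estimate with its 95% interval (filled diamonds, called; open squares, not called or, for Mmp9, fitted without the filter on low values). Adamts1 at 0.69 and Plat at 0.31 are the only filled symbols, and the point of mouse 6 is the lowest of the 6 for both.

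The wider system was described with 6 lists that hold 108 further genes reported here, all of which were found in the files and 66 of which were tested. Of the 66, 1 was called higher, 0 were called lower and 65 were not called, and 34 had a log2 fold change above 0. By comparison, 1.50% of all loci tested were called in either direction, and the median log2 fold change over all loci tested was 0.0076. Of the 16 tested genes reported here from the plasminogen system, 0 were called by limma and 3 had an unadjusted p under 0.05 (median log2 fold change 0.032, range -0.1 to 0.22). Over all loci tested, 8.05% had an unadjusted p under 0.05, the background for this and the following lists.

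The inhibitors Serpine2 and Serpini1 (neuroserpin), which act on the same proteases in brain, stood at 58.3 ± 3.76 and 76.1 ± 12.7 FPKM in control (SD, n = 6 each) and were not called, with log2 fold changes of 0.025 and 0.038. Serpinb2 and Serpinf2, of the same list, averaged below 1 FPKM and were not tested in the main fit. Serpinb2 averaged 0.288 FPKM in control and 0.566 in cocktail hemispheres, from 2 to 50 reads per library, and was higher in 5 of 6 mice. Its adjusted p was 0.581 from limma when all loci with a value were fitted. Serpinf2 was higher in 3 of 6 mice. Plg itself, the substrate of Plat and Plau, had at most 2 reads in any library. Lrp1, the endocytic receptor that clears complexes of protease and inhibitor, was lower in the cocktail in 6 of 6 mice but not called (log2 fold change -0.1, limma unadjusted p = 0.0428, adjusted p = 0.577). The others of that list with an unadjusted p under 0.05 had positive values and were not called. They were Procr, the endothelial receptor of protein C (log2 fold change 0.22, higher in 5 of 6 mice), and F2rl2, a protease-activated receptor (0.18, higher in 4 of 6 mice).

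Among 11 tested metalloproteinases and inhibitors, 0 were called by limma and 0 had an unadjusted p under 0.05 (median log2 fold change -0.055). Mmp17, a membrane-bound metalloproteinase, had 72.2 ± 2.51 FPKM in control and 67.9 ± 4.84 in cocktail hemispheres (SD, n = 6 each) and was not called. Timp4, the further inhibitor of the family, had 12.1 ± 0.580 and 12.9 ± 1.13 FPKM (SD, n = 6 each). In the ADAMTS list, 0 of 10 tested genes were called and 2 had an unadjusted p under 0.05, of which Adamts13, the protease of von Willebrand factor, came closest to a call (log2 fold change 0.32, limma adjusted p = 0.0722). Adamts4, which like Adamts1 cleaves aggrecan and brevican, stood at 10.5 FPKM in both groups with a log2 fold change of 0.0029. In the ADAM list 0 of 10 were called and 1 had an unadjusted p under 0.05, and among the other secreted serine proteases the counts were 0 of 6 and 0. These 3 lists had median log2 fold changes of 0.033, -0.013 and -0.03.

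Of 13 tested matrix substrates 1 was called, against 1.50% of all loci tested, and the median log2 fold change was 0.01. This was Thbs1, the gene of thrombospondin 1, a matrix protein that binds proteases and is itself cleaved by Adamts1. Its mean FPKM was 3.67 ± 1.20 in control and 8.25 ± 1.99 in cocktail hemispheres (SD, n = 6 each), 2.24-fold higher, with control values of 2.34 to 5.69 and cocktail values of 6.28 to 11.2 that did not overlap. The log2 fold change was 1.00 (standard error 0.11, limma adjusted p = 0.000398), with mouse 6 again the lowest at 0.50 and mouse 1 the highest at 1.41. Without mouse 1 the log2 fold change was 0.913 (limma adjusted p = 0.00112). Thbs1 shares 208 exon bases with Gm29233 on the opposite strand, and as for Timp3, reads of the shared bases cannot be told apart here. Gm29233 has 0 loci in the files, so its own level is not known. The proteoglycans Bcan, Ncan and Vcan (versican), substrates of ADAMTS enzymes, had log2 fold changes of -0.021, -0.042 and 0.093 and were not called. Acan (aggrecan) averaged 0.668 FPKM over the 12 libraries and was not tested in the main fit.

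**Figure D4:**
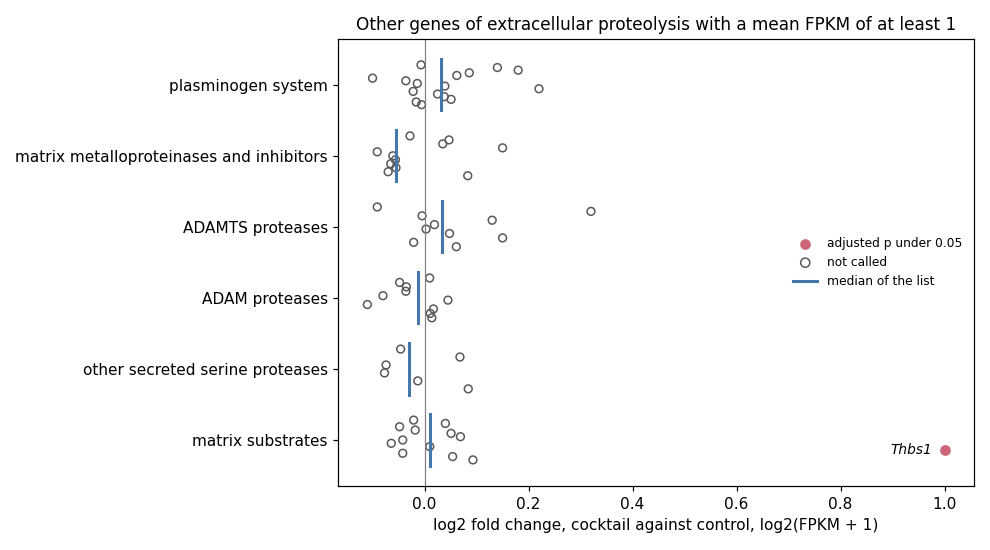
Log2 fold change of the 66 tested genes of the 6 lists, 1 point per gene, on the log2(FPKM + 1) scale. The red point was called (Thbs1 at 1.00), open points were not, and blue bars mark the list medians, which lie between -0.055 and 0.033.

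Cells of the vessel wall and meninges also express Adamts1, Plat, Thbs1 and Timp3, so their markers are given here. Of 5 markers of fibroblasts and meninges, 3 were tested and 0 were called by limma. All 3 had an unadjusted p under 0.05, against 8.05% of all loci tested, and all 3 were higher in the cocktail. Their median log2 fold change was 0.23 (range 0.13 to 0.26), against 0.0076 over all loci tested. Lum and Col3a1 averaged below 1 FPKM, were not tested in the main fit and were each higher in 5 of 6 mice. Col1a1 went from 2.98 ± 0.594 to 3.74 ± 0.371 FPKM (SD, n = 6 each, limma adjusted p = 0.101) and was higher in 6 of 6 mice. Summed over the 5 markers, none of which was at 0, the level was 10.9 to 17.5 FPKM in control and 14.3 to 18.7 in cocktail libraries. The 6 endothelial markers summed to 44.9 to 56.3 and 43.2 to 58.1 FPKM, the 5 mural cell markers to 23.5 to 30.6 and 25.4 to 35.9 FPKM, and the 5 astrocyte markers to 221 to 283 and 238 to 307 FPKM. The 6 microglia markers summed to 98.3 to 111 and 97.2 to 119 FPKM. None of these markers was called. The part of fibroblast or mural cell content in the changes of Adamts1, Plat and Thbs1 was not tested.

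Across the 12 libraries, the locus most like each gene was found by Pearson correlation of log2(FPKM + 1), as a description only, since the libraries share treatment, mice and depth. For Adamts1 it was Tinf2 (r = 0.967), and 149 of 12031 loci reached 0.8. For Plat it was Ciart (r = 0.947), a circadian repressor gene, with 71 loci at 0.8 or above. For Plau it was Mettl8 (r = 0.935), with 145 such loci. The genes nearest to Timp3, Timp2, Timp1 and Plaur were Xbp1 (0.926), Aebp1 (0.938), Anapc11 (0.901) and Rbpj (0.872), with 25, 20, 6 and 5 loci at 0.8 or above.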

How the data were processed

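Auditory cortex RNA of 6 control and 6 cocktail hemispheres, paired by the mouse number in the labels, was analysed. Per the labels and methods, the authors removed ribosomal reads with BWA 0.6.1, aligned the rest to mm10 with TopHat 1.4.1 at 1 placement per read, and deposited FPKM from Cufflinks 1.3.0 with bias correction. The files count a locus start from 0, and starts are given here from 1. The table of the authors' own DESeq2 comparison (mean counts, fold changes, p-values, group means of FPKM) was not used, and imaging was not analysed here.

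FPKM was tested as log2(FPKM + 1) with limma 3.58.1 (R 4.3.3) in a model of treatment and mouse, letting the prior variance follow the mean, and the fit was tested on simulated data. Pairing rests on the labels, which give each mouse's hemispheres the same number. The deviations of same-mouse hemispheres from their group means correlated at 0.216 to 0.406 (6 pairs, median 0.337), and those of different mice at -0.420 to 0.445 (30 pairs, median -0.0714). Reads were recovered as 4 times the squared ratio of FPKM to its interval's width above it, and 82.8% of 36412 values under 20 reads were whole to within 0.05. Libraries of a group differed by more than counting noise (chi-square per gene at least 6.83). Intervals from limma reflect how far the within-mouse differences vary from mouse to mouse, with each variance drawn towards the trend over all loci tested. Differences in level between mice are taken up by the block.

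Genes and lists were chosen with earlier results of these data known. Named were all 8 genes, list genes called (at most 5 per list, by p) and 1 nearest locus per gene tested, and other names were added after their values were seen. Figures used Python 3.11.15 and matplotlib 3.10.9. The marker lists held 54 genes, of which 52 were matched to 1 locus; choroid plexus markers summed to at most 2.23 FPKM and blood markers to at most 0.595. 1 gene of the lists is not reported here, and it is left out of the counts over the lists but not of the fit over all loci.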

Additional observations from a re-analysis of the deposited data

Results flagged for a closer look

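Of 24 groups of 6 values (each gene in control, in cocktail and as within-mouse difference), 1 had a value far from the other 5, where about 1 in 20 groups is expected to by chance (1.20 of 24). Timp3 in cocktail hemispheres stood at 24.2 FPKM in mouse 2 and between 19.2 and 20.9 in the remaining animals, a gap of 0.648 of the whole range. Mouse 2 also had the largest within-mouse difference of Timp3 (0.27). The cause was not tested.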

How the results depend on the processing

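The number of loci called was 180. It was 88 without the replicate block (77 higher, 11 lower) and 118 with voom on the recovered reads. Over the fits that each left out a mouse it ran from 104 (without mouse 4) to 181. Of the 8 genes, 2 were called in the main fit and 1 (Adamts1) without the replicate block. Leaving out each mouse gave 1 to 2, the lower value without mouse 4, where Plat was not called. Of the further list genes, 1 (Thbs1) was called in the main fit and 2 with median-of-ratios scaling, and leaving out each mouse gave 1 to 2, the higher value without mouse 6. The replicate block changed no other call among the 8 genes and Thbs1. The causes of these shifts were not tested.

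Plaur changed sign to -0.0029 with voom, and with mice left out in turn it ran from -0.021 to 0.091. Timp2 changed sign to -0.0072 with voom and reached 0.057 at most. The Mmp9 difference was 0.15 with 0.1 in place of 1 added to the FPKM. Plaur and Timp2 were not called in any setting that tested them. Mmp9 was tested only in the fit without the filter on low values and was not called there (limma adjusted p = 0.895). Adamts1 and Thbs1 were called in all 13 alternatives, with log2 fold changes of 0.623 to 0.751 and 0.913 to 1.171. Plau, Timp1 and Timp3 had the same sign and no call in all alternatives that tested them. Median-of-ratios scaling reversed no direction. Few reads limit what can be said of Mmp9 and Timp1.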
